A study of Mus musculus with 22 samples.

Results

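The genes followed here are 10 genes of bladder epithelial identity: Pparg and its target gene Fabp4, the transcription factors Gata3, Foxa1, Elf3, Grhl3, Klf4, Klf5 and Tbx3, and the basal factor Trp63. They were chosen by name, with earlier results of these data known, and 10 of 10 were found among the 24421 genes counted in each library. The study set Arid1a knockout (KO) against Arid1a wild type (WT) mouse bladder organoids, which are epithelial cultures grown in 3 dimensions. The product of Arid1a binds DNA as part of BAF, a SWI/SNF complex that moves nucleosomes. Primary urothelial organoids gave 3 KO and 3 WT libraries each of total RNA, of the polysome part of a sucrose gradient and of its subpolysome part. Isogenic bladder cancer organoids gave 2 total RNA libraries labelled KO and 2 labelled WT. The polysome part holds mRNAs with several ribosomes, and the subpolysome part holds mRNAs with few or none. The sources used here do not give the deleted stretch of Arid1a, the means of deletion, the strain, sex and age of the animals, the number of animals or clones, or any drug treatment.

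The urothelium is a layered epithelium with basal cells next to its support and luminal cells facing the urine. Pparg is a nuclear receptor that is activated by lipid ligands, binds DNA as a pair with a retinoid X receptor and drives luminal differentiation; Gata3 and Foxa1 open and occupy the same class of luminal genes, and these factors mark the luminal type of bladder cancer. Elf3 (an ETS factor), Grhl3 (a grainyhead factor needed for the barrier of surface cells) and the Krüppel-like factors Klf4 and Klf5 act in epithelial differentiation, whereas Trp63 (p63) maintains the basal layer of stratified epithelia. Tbx3 is a T-box factor that mostly represses transcription. Fabp4 encodes a fatty acid binding protein, best known from fat cells, where it is a standard reporter of Pparg activity.

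The libraries held 39245248 to 76594655 counts. CPM here are gene counts relative to the library total, rescaled by TMM factors that bring most genes to a shared level, and 3 counts correspond to at most 0.122 CPM. Arid1a itself had 74.9, 74.8 and 83.8 CPM in KO total RNA, against 114, 130.3 and 116 CPM in WT total RNA (log2 fold change -0.60, SE 0.06, edgeR adjusted p = 5.68e-06). It had 23.6, 19.3 and 13.9 CPM in KO polysomes, against 34.6, 24.8 and 21.6 CPM in WT polysomes, and 75.3, 64.3 and 62.4 CPM in KO subpolysomes, against 60.3, 62.8 and 55.8 CPM in WT subpolysomes. Only in total RNA did all KO libraries lie below all WT libraries. In the cancer organoids the libraries labelled KO 1 and KO 2 had 175 and 56.7 CPM of Arid1a, against 66.9 and 196 CPM in the libraries labelled WT 1 and WT 2, so the levels of KO 1 and WT 1 went against their labels while those of KO 2 and WT 2 did not, and each cancer comparison of genotypes is by label only. Ddx3y, a gene of the Y chromosome, had 12 counts in the library labelled KO 2, beside 2896 in that labelled KO 1, against 3478 and 2578 in those labelled WT 1 and WT 2. Separate animals or cultures are not stated for the replicates, so the p-values cover library spread alone, and that spread may be technical. Bulk RNA cannot tell fewer cells of a type from less RNA per cell.

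In total RNA of primary organoids 8 of the 10 genes were higher in KO than in WT and 0 were lower, at an adjusted p under 0.05; the background was 27.0% higher and 26.3% lower among all 13198 genes tested. DESeq2 also gave 8 higher and 0 lower, and 0 were lower at an unadjusted p under 0.05 by edgeR. Fabp4 and Pparg differed most, Klf4 and Grhl3 came next, and Foxa1 and Tbx3 did not pass. The median log2 fold change of the 10 genes was 0.51, beside 0.00 over all genes tested. In the same 8 genes every KO library lay above every WT library, and 61.6% of all genes tested had groups that did not overlap in one direction or the other.

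Pparg lies on chromosome 6 (positions 115360951 to 115490399, plus strand, GRCm38) and had 64.7, 73.7 and 71.5 CPM in KO libraries, against 28.3, 32.7 and 30.5 CPM in WT libraries. All 3 KO libraries stood above all 3 WT libraries, a 2.34-fold difference (log2 fold change 1.23, SE 0.06, edgeR adjusted p = 3.01e-08). Fabp4 lies on chromosome 3 (10204088 to 10208576, minus strand) and had 119, 137 and 122 CPM in KO libraries, against 36.9, 34.8 and 27.9 CPM in WT libraries. The lowest KO value was thus more than 3 times the highest WT value, and the fitted difference was 3.87-fold (log2 1.95, SE 0.09, edgeR adjusted p = 1.66e-08). In fat tissue Fabp4 marks adipocytes. The adipocyte genes Adipoq, Plin1 and Cfd had 0 counts in all 6 of these libraries. The 7 adipocyte markers summed to 23.1 to 25.8 CPM of library total in KO libraries and to 16.1 to 18.04 CPM in WT libraries, and Lipe, a lipase, was the 1 marker above 1 CPM. Lipe passed as higher in KO (log2 fold change 0.47). The part of adipocytes in the Fabp4 difference was not tested.

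Klf4, a factor of terminal differentiation on chromosome 4, had 167, 145 and 151 CPM in KO libraries, against 96.1, 77.3 and 77.7 CPM in WT libraries (log2 fold change 0.91, SE 0.08, edgeR adjusted p = 3.68e-06). Grhl3, also on chromosome 4, had 82.0, 81.9 and 77.6 CPM in KO libraries, against 47.3, 42.5 and 42.9 CPM in WT libraries (log2 0.89, SE 0.06, edgeR adjusted p = 1.34e-07). Both genes were about as far apart between the genotypes, with no overlap of libraries, and WT 1 was the highest WT library for each. Trp63, on chromosome 16, rose alongside the luminal factors: it had 291, 297 and 322 CPM in KO libraries and 224, 202 and 217 CPM in WT libraries (log2 0.53, SE 0.05, edgeR adjusted p = 7.85e-06). The counts do not separate the Trp63 isoforms that carry or lack the transactivation domain.

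Gata3, a zinc finger factor on chromosome 2, had 101, 106 and 110.2 CPM in KO libraries, against 80.1, 81.9 and 70.3 CPM in WT libraries (log2 fold change 0.48, SE 0.06, edgeR adjusted p = 3.96e-05). Klf5 had 140.3, 131 and 153 CPM in KO libraries, against 107, 105 and 96.8 CPM in WT libraries (log2 0.49, SE 0.06, edgeR adjusted p = 3.31e-05). Elf3 had 256, 229.9 and 212 CPM in KO libraries, against 195, 193 and 172 CPM in WT libraries (log2 0.34, SE 0.07, edgeR adjusted p = 0.00124). For these 3 genes the groups did not overlap, with differences of 1.27-fold to 1.40-fold. Foxa1, a pioneer factor that opens closed chromatin, had 157, 161 and 168 CPM in KO libraries and 163, 155 and 164 CPM in WT libraries, so the groups overlapped (log2 0.04, SE 0.04, edgeR adjusted p = 0.474). Tbx3 overlapped as well, with 118, 116 and 129.7 CPM in KO libraries and 119.5, 118 and 122 CPM in WT libraries (log2 0.05, SE 0.05, edgeR adjusted p = 0.445).

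**Figure D1:**
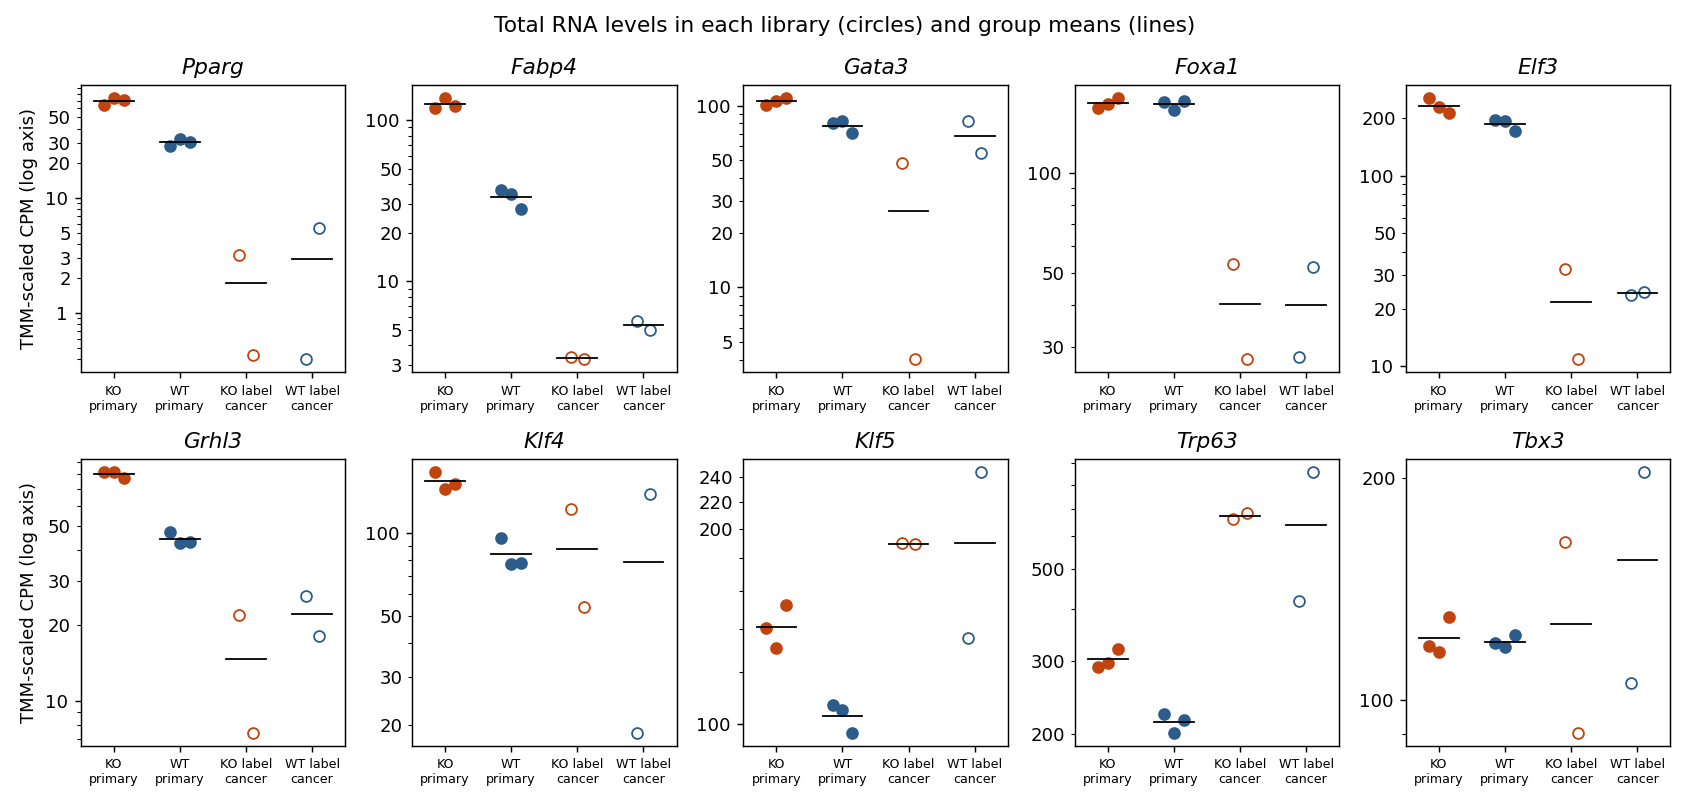
Total RNA levels of the 10 genes in TMM-scaled CPM (log axes with a range of their own in each panel), by group. Circles are libraries and lines are group means; open circles are the cancer libraries as labelled, and in the primary organoids the 3 KO libraries lie above the 3 WT libraries in 8 of the 10 panels.

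Per length, which allows genes to be compared, the order of the levels differed between the genotypes. In KO total RNA Fabp4 led with 140.7 ± 10.7 CPM per kb of exon (SD, n = 3), followed by Elf3 with 111 ± 10.4, and their libraries did not overlap. Klf4 (50.9 ± 3.84 CPM per kb) and Foxa1 (50.7 ± 1.72) came next and overlapped. Trp63 (36.1 ± 1.94) and Gata3 (32.8 ± 1.50) did not overlap with each other, Pparg (29.4 ± 1.98), Grhl3 (28.9 ± 0.914) and Klf5 (27.2 ± 2.11) did, and Tbx3 was lowest (23.3 ± 1.38). In WT total RNA Elf3 led with 89.2 ± 6.12 CPM per kb (SD, n = 3), followed by Foxa1 with 50.3 ± 1.58 and Fabp4 with 37.1 ± 5.26. Klf4 (27.6 ± 3.53 CPM per kb) overlapped with Fabp4 above it and with Trp63 (25.5 ± 1.33) below it, and Trp63, Gata3 (24.1 ± 1.94) and Tbx3 (23.1 ± 0.425) formed an overlapping run in which each gene overlapped with the next. Klf5 (19.8 ± 1.02), Grhl3 (15.9 ± 0.962) and Pparg (12.8 ± 0.915) followed with no overlap. Pparg was thus the lowest of the 10 genes per length in WT, whereas 3 genes lay below it in KO, by their means. The length used is that of all exons of a gene together, which lowers the value of Trp63, with 8 annotated transcripts over 8391 bases. None of the 10 genes shares exon bases with another counted gene in the GENCODE M21 basic annotation.

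The RefSeq promoter windows (250 bases before to 50 after an annotated start, GRCm38.p6) were read for the genes that moved together and for Foxa1, which did not pass. Entries existed for 6 of the 10 genes; those of Fabp4, Klf5, Trp63 and Tbx3 were not found in the table used. The windows were searched on both strands for the binding letters of the factors themselves: GATAAG for Gata3, TGTTTAC for Foxa1, CCGGAAG for Elf3 and other ETS factors, CCACCC for the Krüppel-like factors, AACCNGTT for Grhl3, AGGTGTGA for Tbx3, and the DR1 direct repeat element for Pparg with a retinoid X receptor. The 6 windows printed here hold a match, which is in capitals (on the reverse strand as its complement, so that CCACCC appears as GGGTGG). The Pparg windows are chr6:115360894-115361193 and chr6:115362099-115362398 on the plus strand. The Gata3, Grhl3, Elf3 and Foxa1 windows are chr2:9878551-9878850, chr4:135573583-135573882, chr1:135258423-135258722 and chr12:57546062-57546361 on the minus strand, and all run 5′ to 3′.
Pparg window 1: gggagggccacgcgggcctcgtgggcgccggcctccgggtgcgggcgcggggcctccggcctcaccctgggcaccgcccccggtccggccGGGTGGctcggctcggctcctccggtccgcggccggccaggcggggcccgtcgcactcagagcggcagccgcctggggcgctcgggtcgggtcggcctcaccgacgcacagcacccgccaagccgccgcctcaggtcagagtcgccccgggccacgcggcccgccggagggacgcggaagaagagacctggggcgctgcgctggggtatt
Pparg window 2: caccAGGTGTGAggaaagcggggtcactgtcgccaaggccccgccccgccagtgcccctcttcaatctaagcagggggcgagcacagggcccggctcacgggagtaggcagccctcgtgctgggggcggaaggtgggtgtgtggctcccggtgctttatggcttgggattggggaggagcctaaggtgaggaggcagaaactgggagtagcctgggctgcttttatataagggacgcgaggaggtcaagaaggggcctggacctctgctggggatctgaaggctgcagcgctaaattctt
Gata3: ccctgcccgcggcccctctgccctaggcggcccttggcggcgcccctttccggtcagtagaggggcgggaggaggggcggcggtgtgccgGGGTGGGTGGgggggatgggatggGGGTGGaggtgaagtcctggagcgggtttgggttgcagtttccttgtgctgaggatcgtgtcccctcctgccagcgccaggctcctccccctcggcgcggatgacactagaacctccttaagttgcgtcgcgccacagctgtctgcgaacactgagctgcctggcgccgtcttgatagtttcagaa
Grhl3: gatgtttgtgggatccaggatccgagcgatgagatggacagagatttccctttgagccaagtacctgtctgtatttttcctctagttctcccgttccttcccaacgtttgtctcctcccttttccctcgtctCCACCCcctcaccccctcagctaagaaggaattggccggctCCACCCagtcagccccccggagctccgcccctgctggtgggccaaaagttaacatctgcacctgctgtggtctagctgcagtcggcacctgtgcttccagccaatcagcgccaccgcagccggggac
Elf3: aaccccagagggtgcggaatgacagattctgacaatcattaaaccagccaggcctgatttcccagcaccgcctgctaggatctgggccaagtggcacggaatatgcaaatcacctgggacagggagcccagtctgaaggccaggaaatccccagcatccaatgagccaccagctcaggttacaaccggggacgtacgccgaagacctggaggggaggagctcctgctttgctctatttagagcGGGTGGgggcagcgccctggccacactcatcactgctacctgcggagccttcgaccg
Foxa1: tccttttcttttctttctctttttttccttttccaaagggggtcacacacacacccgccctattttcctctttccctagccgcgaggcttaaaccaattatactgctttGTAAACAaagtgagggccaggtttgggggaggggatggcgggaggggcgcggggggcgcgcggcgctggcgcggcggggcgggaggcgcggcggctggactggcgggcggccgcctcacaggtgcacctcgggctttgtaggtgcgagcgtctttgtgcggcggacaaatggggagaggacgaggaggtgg
The Krüppel-like letters stood in Pparg window 1 (1 match), Gata3 (3 matches, 2 of them overlapping), Grhl3 (2 matches) and Elf3 (1 match), and 31.5% of the 32851 promoter windows in the table hold them. Pparg window 2 held the T-box letters, found in 1.27% of all windows, and Foxa1 held the forkhead letters, found in 3.65%. The other Pparg window and the Klf4 window held no match to any of the searched letters. GATAAG is held by 7.44% of all windows, CCGGAAG by 8.86%, AACCNGTT by 2.09% and the DR1 element by 0.0396%, and none of these was in the windows of these 6 genes. These matches describe letters only.

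In polysomes and in subpolysomes the genotypes were compared again, each within its own 6 libraries. In polysomes 8 of the 10 genes were higher in KO than in WT and 0 were lower, beside 14.9% higher and 13.8% lower of 13066 genes tested. In subpolysomes 8 were higher and 0 lower as well, beside 11% higher and 11% lower of 12645 genes tested. These were the same 8 genes as in total RNA, DESeq2 gave the same counts, and by edgeR 0 genes were lower at an unadjusted p under 0.05. In both kinds of library the groups of these 8 genes did not overlap, which held for 43.1% of all genes tested in polysomes and for 36.7% in subpolysomes. The median log2 fold change of the 10 genes was 0.54 in polysomes and 0.56 in subpolysomes, beside 0.01 over all genes tested in each. The 3 kinds of RNA carry the same genotype and replicate titles, so the comparisons are not known to be independent of each other.

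Pparg had 58.1, 62.8 and 52.1 CPM in KO polysomes, against 24.6, 27.4 and 24.1 CPM in WT polysomes (log2 fold change 1.21, SE 0.13, edgeR adjusted p = 2.46e-06). In subpolysomes it had 65.2, 80.2 and 69.0 CPM in KO, against 37.1, 35.8 and 32.9 CPM in WT (log2 1.03, SE 0.12, edgeR adjusted p = 5.17e-07). The KO libraries thus lay at about the same multiple of the WT libraries in both fractions. Fabp4 had 423, 488 and 501 CPM in KO polysomes, against 141, 159 and 116 CPM in WT polysomes (log2 1.79, SE 0.15, edgeR adjusted p = 9.99e-08). In subpolysomes it had 160.1, 167 and 148 CPM in KO, against 36.0, 37.4 and 31.5 CPM in WT (log2 2.20, SE 0.11, edgeR adjusted p = 4.28e-13). Fabp4 was the most different of the 10 genes in each kind of RNA.

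Grhl3 had 35.6, 37.0 and 28.2 CPM in KO polysomes, against 21.0, 16.6 and 14.5 CPM in WT polysomes (log2 fold change 0.98, SE 0.16, edgeR adjusted p = 0.000201). In subpolysomes Grhl3 was 2.14-fold higher (log2 1.10, SE 0.13, edgeR adjusted p = 9.31e-07). Klf4 had log2 fold changes of 0.92 (SE 0.16, edgeR adjusted p = 0.00032) in polysomes and 0.72 (SE 0.14, edgeR adjusted p = 0.000592) in subpolysomes. Trp63 had 205, 212 and 172 CPM in KO polysomes, against 145, 139 and 144 CPM in WT polysomes (log2 0.50, SE 0.13, edgeR adjusted p = 0.00791), and its log2 fold change in subpolysomes was 0.65 (SE 0.10, edgeR adjusted p = 4.33e-05). These 3 factors kept their direction and their call in every alternative run.

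Gata3, Klf5 and Elf3 had log2 fold changes between 0.38 and 0.55 in both fractions, and some of these calls were lost when a library was left out. Elf3 in polysomes (log2 0.41, SE 0.12, edgeR adjusted p = 0.015) lost its call without KO 2, WT 2 or WT 3 (adjusted p = 0.0596, 0.0633 and 0.0594). Gata3 in subpolysomes (log2 0.42, SE 0.12, edgeR adjusted p = 0.0103) lost its call without WT 2 (adjusted p = 0.0668) or WT 3 (0.0797) and when scaled by library totals only (0.0695). Klf5 in subpolysomes (log2 0.38, SE 0.12, edgeR adjusted p = 0.0229) lost it without KO 1 (adjusted p = 0.135), WT 2 (0.165) or WT 3 (0.0678) and with library totals only (0.0953). Foxa1 had log2 fold changes of -0.08 (SE 0.15, edgeR adjusted p = 0.739) in polysomes and 0.19 (SE 0.11, edgeR adjusted p = 0.237) in subpolysomes, and Tbx3 had 0.01 (SE 0.13, edgeR adjusted p = 0.983) and 0.15 (SE 0.11, edgeR adjusted p = 0.4).

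**Figure D2:**
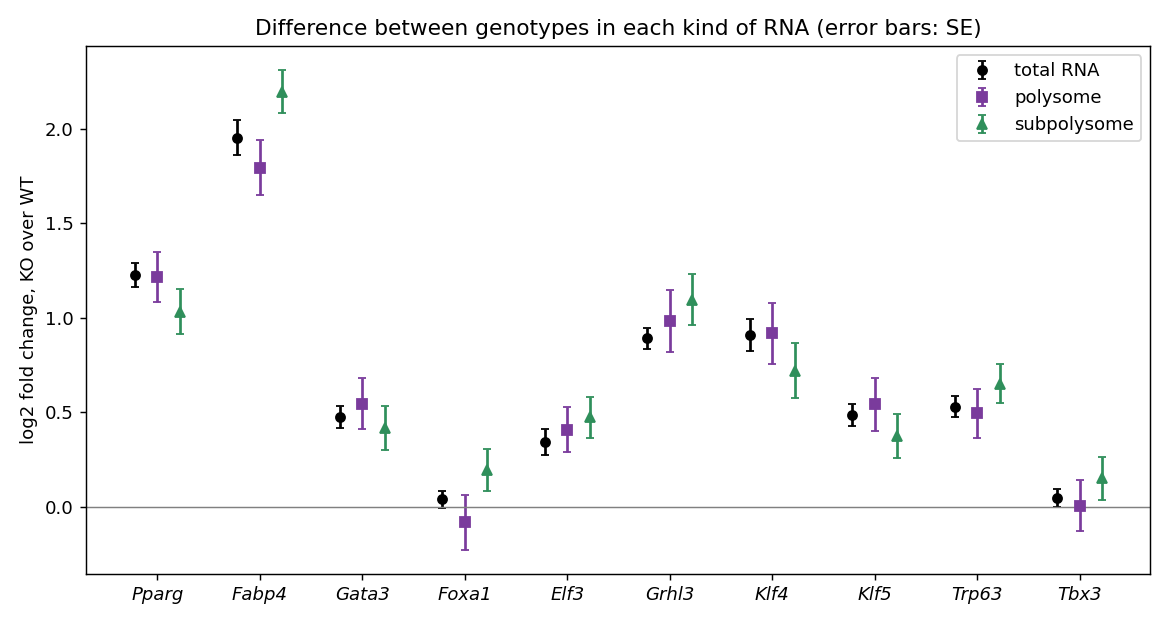
Log2 fold change of KO over WT (y axis) for each of the 10 genes in total RNA (circles), polysomes (squares) and subpolysomes (triangles), with error bars of 1 SE from the edgeR fit of 3 against 3 libraries. Fabp4 stands highest in each kind of RNA, from 1.79 to 2.20, and Foxa1 and Tbx3 stand between -0.08 and 0.19.

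Within each genotype the polysome libraries were set against the subpolysome libraries, a difference that is relative to other mRNAs because the amount of RNA in a fraction was not counted. After TMM scaling 1 of the 10 genes was higher and 6 were lower in polysomes in KO, beside 31.7% higher and 29.9% lower of 13392 genes tested. In WT 1 was higher and 7 were lower, beside 32.8% higher and 30.9% lower. The TMM factors were 0.604 to 0.712 for subpolysome libraries and 1.06 to 1.22 for polysome libraries. With library totals only, the median log2 fold change of all genes was 0.90 in KO and 0.84 in WT, against 0.01 in each after TMM scaling, and of the 10 genes 7 were then higher and 1 (Gata3) lower in KO and 4 higher and 1 (Gata3) lower in WT. The log2 fold changes are therefore positions relative to the median mRNA.

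Fabp4 was the gene with the highest polysome level relative to the median mRNA, and Gata3 the one with the lowest, under both scalings. The Fabp4 values given above amount to a log2 fold change of 1.54 (SE 0.13, edgeR adjusted p = 1.66e-09) in KO and of 1.93 (SE 0.13, edgeR adjusted p = 6.58e-11) in WT. Gata3 had 47.8, 48.7 and 43.7 CPM in KO polysomes, against 139, 132 and 131 CPM in KO subpolysomes (log2 -1.55, SE 0.13, edgeR adjusted p = 1.36e-09). In WT it had 37.4, 29.9 and 30.5 CPM in polysomes, against 117, 100.2 and 86.7 CPM in subpolysomes (log2 -1.69, SE 0.13, edgeR adjusted p = 3.48e-10). The polysome and subpolysome libraries did not overlap for either gene in either genotype, which held for 64.8% of all genes tested in KO and 69.1% in WT.

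Tbx3 (log2 fold change -0.87, SE 0.12, in KO and -0.74, SE 0.12, in WT) and Grhl3 (-0.77, SE 0.15, in KO and -0.67, SE 0.15, in WT) were lower in polysomes after TMM scaling, but between 0.02 and 0.16 with library totals only. Pparg had -0.33 (SE 0.12, edgeR adjusted p = 0.0192) in KO and -0.53 (SE 0.12, edgeR adjusted p = 0.000689) in WT, and the sign turned to 0.55 and 0.30 with library totals only. Klf5 (-0.33 in KO and -0.51 in WT) and Trp63 (-0.43 in KO and -0.28 in WT) passed in both genotypes and turned in the same way. Klf4 passed in WT (-0.50, SE 0.17, edgeR adjusted p = 0.0163) and had -0.29 (SE 0.17, edgeR adjusted p = 0.154) in KO, where it passed with a replicate block per genotype and number (-0.30, edgeR adjusted p = 0.0235). Elf3 and Foxa1 did not pass in either genotype, with values between -0.20 and 0.15, but Elf3 passed as lower in KO with DESeq2 (-0.22, adjusted p = 0.049). With library totals only both passed as higher in both genotypes (edgeR adjusted p from 2.92e-06 to 5.51e-05). Elf3 then had 0.69 in KO and 0.68 in WT, and Foxa1 had 0.78 in KO and 0.98 in WT. The calls of Pparg and Klf5 in KO were lost with no filter on low counts (adjusted p = 0.055 and 0.0542), that of Pparg also without KO polysome 3 or KO subpolysome 2, and that of Klf5 without KO polysome 2 or 3 or KO subpolysome 1 or 3. In WT the call of Trp63 was lost in 9 of the 12 fits that left out a library (adjusted p up to 0.173) and with no filter on low counts (0.0996), and that of Klf4 without WT polysome 2 or WT subpolysome 1 (adjusted p = 0.106 and 0.277).

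None of the 10 genes passed the test of whether this ratio differed between KO and WT (edgeR; 0 of 10 by DESeq2 as well, and 1, Fabp4, at an unadjusted p under 0.05). Of all 13392 genes 1 passed (0.00747%), 758 had an unadjusted p under 0.05 DESeq2 called 12, and the replicate block per genotype and number also called 12. The differences of the 10 genes ran from a log2 value of -0.39 for Fabp4 (SE 0.18, edgeR adjusted p = 0.877) to 0.21 for Klf4 (SE 0.24, edgeR adjusted p = 0.968), with SEs of 0.15 to 0.24. Pparg had 0.19 (SE 0.17) and Trp63 -0.15 (SE 0.16). A missed threshold does not show that the ratios were equal.

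**Figure D3:**
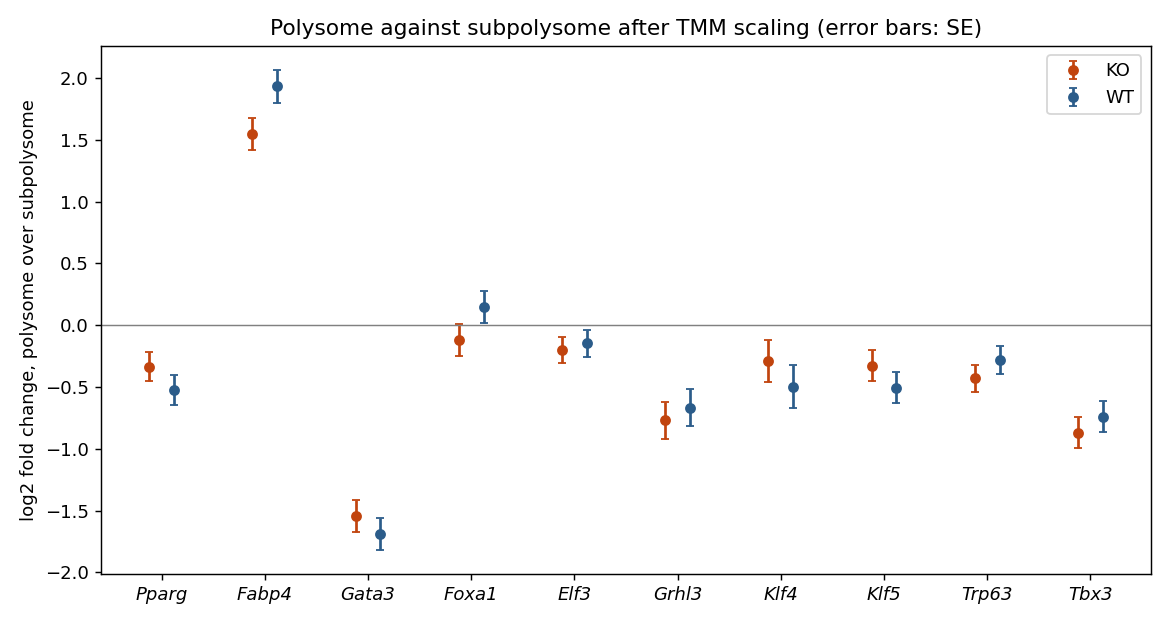
Log2 fold change of polysome over subpolysome after TMM scaling (y axis) for each of the 10 genes in KO and in WT, with error bars of 1 SE from the edgeR fit of 12 libraries. Fabp4 stands at 1.54 in KO and 1.93 in WT and Gata3 at -1.55 in KO and -1.69 in WT; with library totals only the points of all genes stand higher, by a median of 0.90 in KO and 0.84 in WT, and those of the lower genes other than Gata3 turn positive.

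Genes that work with these factors were counted from lists written with earlier results of these data known. Of 17 tested partners and cofactors of Pparg, 7 were higher and 1 was lower in KO than in WT total RNA (median log2 fold change 0.08), beside the 27.0% higher and 26.3% lower of all genes. Rxra, the retinoid X receptor that pairs with Pparg, had 264 ± 14.9 CPM in KO and 192 ± 7.59 CPM in WT (SD, n = 3 each; log2 0.49, SE 0.05, edgeR adjusted p = 8.23e-06). The coactivator Ncoa3 rose likewise (log2 0.48, SE 0.05), and the corepressor Nrip1 fell (log2 -0.38, SE 0.05). In polysomes 3 partners were higher of 17 tested and the other 14 did not pass, and in subpolysomes 1 was higher and 1 lower of 14. The count in polysomes was near the background of 14.9% higher, and that in subpolysomes near 11% in each direction.

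Of 18 other target genes of Pparg with enough counts, 10 were higher and 5 lower in KO total RNA, with a median log2 fold change of 0.25, and the lower count was near the background of 26.3%. Cpt1a, which carries fatty acids into mitochondria, had 72.1 ± 7.20 CPM in KO and 39.1 ± 1.49 CPM in WT (SD, n = 3 each; log2 0.91, SE 0.07, edgeR adjusted p = 6.51e-07), and Ech1, an enzyme of fatty acid oxidation, rose 1.61-fold. Plin2, a coat protein of lipid droplets, had 72.0 ± 3.46 CPM in KO and 115 ± 3.01 CPM in WT (log2 -0.64, SE 0.05, edgeR adjusted p = 4.29e-07), and the mitochondrial carrier Ucp2 fell by 0.64 on the log2 scale (SE 0.06). None of the targets named here differed as much as Fabp4. In polysomes 6 were higher and 3 lower of 18, and in subpolysomes 5 were higher and 4 lower of 18, with a median of 0.24 in polysomes and 0.01 in subpolysomes, beside backgrounds of 14.9% and 13.8% in polysomes and 11% in each direction in subpolysomes.

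Among 24 other epithelial transcription factors tested, 12 were higher and 5 lower in KO total RNA (median log2 fold change 0.28), beside backgrounds of 27.0% higher and 26.3% lower. Gata6, a relative of Gata3, had 23.1 ± 0.572 CPM in KO and 10.5 ± 1.14 CPM in WT (SD, n = 3 each; log2 1.17, SE 0.08, edgeR adjusted p = 3.35e-07), and Tbx2, a relative of Tbx3, had 69.8 ± 0.937 CPM in KO and 32.1 ± 1.81 CPM in WT (log2 1.15, SE 0.05, edgeR adjusted p = 1.31e-08). Tbx2 thus passed in the direction of the 8 genes, whereas Tbx3 did not pass. Sox9, a factor of progenitor cells in many epithelia, had 95.6 ± 10.4 CPM in KO and 210.3 ± 13.7 CPM in WT (log2 -1.11, SE 0.07, edgeR adjusted p = 2.08e-07). Of 23 tested in each fraction, 10 were higher and 4 lower in polysomes, where 14.9% of all genes were higher and 13.8% lower, and 10 were higher and 3 lower in subpolysomes, where the background was 11% in each direction.

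The rise of Trp63 was set beside its relatives and targets and beside basal markers. Of 14 relatives and targets tested, 5 were higher and 7 lower in KO total RNA (median log2 fold change -0.18). The background for these counts and those of the markers was 27.0% higher and 26.3% lower. The Notch ligand Jag2 had 101 ± 3.48 CPM in KO and 57.5 ± 3.90 CPM in WT (SD, n = 3 each; log2 0.84, SE 0.06, edgeR adjusted p = 2.35e-07). Bnc1, a basal zinc finger factor, had 48.1 ± 1.59 CPM in KO and 94.0 ± 5.78 CPM in WT (log2 -0.94, SE 0.05, edgeR adjusted p = 4.75e-08), and the laminin chain gene Lama3 (log2 -0.74, SE 0.05) and the cell cycle inhibitor gene Cdkn1a (log2 -0.59, SE 0.04) fell too. Of 15 basal markers 6 were higher and 5 lower (median 0.01), not far above the background: the keratin gene Krt17 fell (log2 -1.87, SE 0.10), while the neurotrophin receptor gene Ngfr (log2 2.04, SE 0.10) and the hedgehog ligand gene Shh rose. Shh had 900, 1012 and 1041 counts in KO libraries, against 11, 4 and 22 counts in WT libraries (log2 6.21, SE 0.26, edgeR adjusted p = 6.67e-09). Of 15 luminal markers 12 were higher and 3 lower (median 1.01), with the uroplakin gene Upk3b (log2 3.22, SE 0.10) and the growth factor receptor gene Fgfr3 (log2 2.82, SE 0.12) among those higher. The 3 lower ones were the keratin genes Krt7 and Krt20 and the claudin gene Cldn4, and Krt20 was also lower in polysomes and in subpolysomes.

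**Figure D4:**
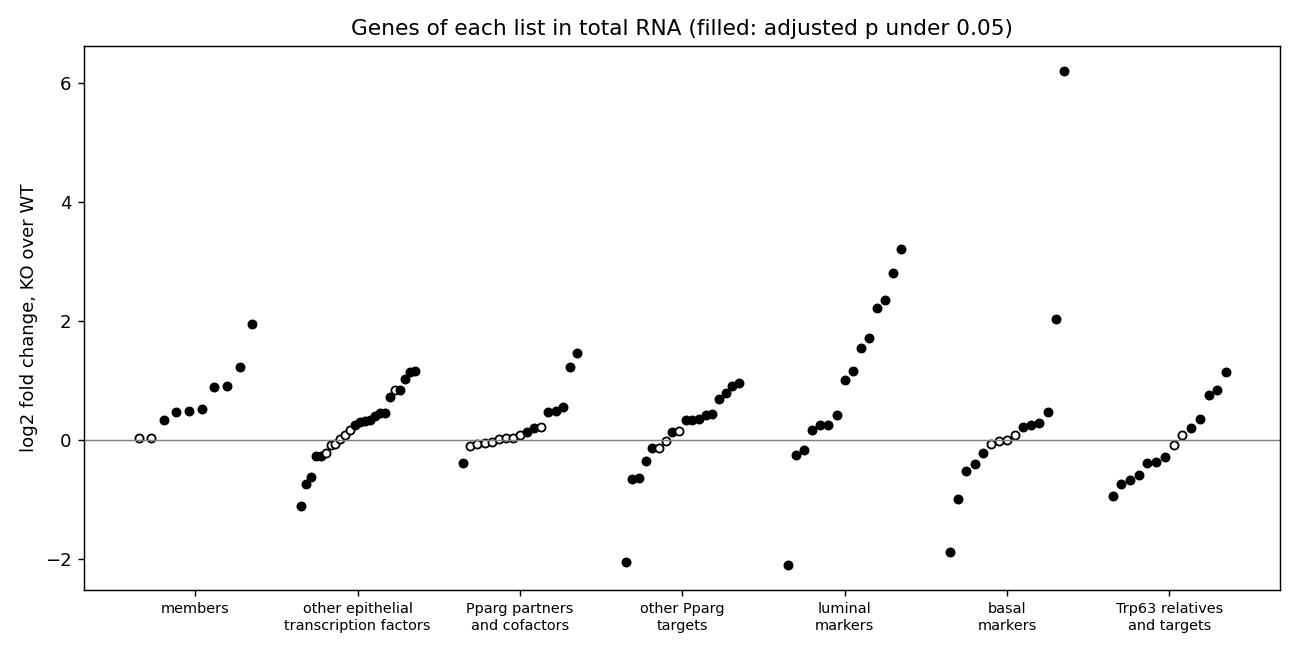
Log2 fold change of KO over WT in total RNA (y axis) for each tested gene of 7 lists, sorted within its list; filled points passed at an adjusted p under 0.05 and open points did not. The 10 lineage genes have no point below 0, while each of the other lists has points on both sides.

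Markers of other cell types were low in these libraries. In KO total RNA the 6 macrophage markers summed to 22.3 to 24.6 CPM of library total, against 9.89 to 11.4 CPM in WT, and the 5 smooth muscle markers to 20.3 to 21.9 CPM in KO, against 5.90 to 6.74 CPM in WT. In each of these lists 1 gene (Cd68 and Acta2) was above 1 CPM, while the macrophage genes Ptprc, Adgre1 and Lyz2 had 0 counts in all 6 libraries. The 7 fibroblast markers summed to 1.98 to 2.34 CPM in KO and 3.54 to 4.41 CPM in WT, and the 7 endothelial markers to 0.541 to 0.858 CPM in KO and 0.438 to 1.16 CPM in WT. The ribosomal RNA precursor Rn45s took 2.02% to 2.08% of counts in KO total RNA and 2.44% to 2.58% in WT total RNA, and 0.208% to 5.59% in the gradient libraries. The part of these markers and of Rn45s in the differences was not tested.

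The 10 genes followed here were left out of a comparison of 7211 other genes on log2 CPM. Of these 7211, Atp8b1 (Pearson r = 0.983), Gpr39 (0.971), Krt23 (0.952), Fmo5 (0.952) and Odc1 (0.949) ran most like Pparg over the 18 primary libraries. Atp8b1, a lipid flippase gene, had 95.2 ± 1.22 CPM in KO total RNA and 45.2 ± 1.55 CPM in WT total RNA, and Krt23, a keratin gene, had 117 ± 4.15 CPM in KO and 25.3 ± 2.11 CPM in WT (SD, n = 3 each). Those most like Trp63, with the same genes left out, were Rab11fip1 (r = 0.962), Plxna2 (0.954) and the grainyhead factor gene Grhl1 (0.953). The 18 libraries form 6 groups, so these values follow the group means and the depth and composition that libraries of a fraction share; they are a description.

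The cancer organoids were first checked for their tissue. The basal keratin gene Krt5 had 7237 and 8366 CPM in the libraries labelled KO and 6583 and 9251 CPM in those labelled WT. The uroplakin genes Upk2, Upk3a and Upk3b, which define luminal urothelium, had 0 counts in all 4 libraries, which allows at most 0.0538 CPM, and the keratin gene Krt7 had at most 0.215 CPM, against 2063 ± 84.2 CPM in KO and 2511 ± 74.4 CPM in WT primary organoids. Of the 7 epithelial markers, Epcam, Cdh1, Krt18 and Krt5 were above 1 CPM in both labels. Krt8 was so in the label WT alone, and Upk1a and Upk2 in neither. Against primary organoids 6 of the 7 markers (all but Krt5) were lower in cancer and 0 higher. The background was 38.2% lower and 38.9% higher. These libraries thus held the basal keratin gene Krt5, and Upk2, Upk3a and Upk3b were not detected in them. Fibroblast markers summed to 14.4 CPM of library total in one library labelled WT and to 0.230 CPM in the other, and the part of this in the results was not tested.

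Between the cancer libraries labelled KO and those labelled WT 0 of the 10 genes passed, and 0 of 12681 genes in all (0%; edgeR, with 96 genes and 0 of the 10 at an unadjusted p under 0.05; DESeq2 called 10 genes and 0 of the 10). Pparg had 3.21 and 0.431 CPM in the libraries labelled KO 1 and KO 2, against 0.400 and 5.50 CPM in those labelled WT 1 and WT 2. Klf4 had 122 and 53.8 CPM in the libraries labelled KO, against 18.8 and 139 CPM in those labelled WT. For both genes the library labelled WT 2 was highest, the library labelled KO 1 came second, and those labelled KO 2 and WT 1 were lowest. Trp63 had 661 and 682 CPM in the libraries labelled KO and 418 and 859 CPM in those labelled WT, and Klf5 had 190.1 and 189 CPM in the libraries labelled KO and 136 and 245 CPM in those labelled WT. Gata3 had 48.5 and 4.03 CPM in the libraries labelled KO and 81.8 and 55.0 CPM in those labelled WT. The log2 fold changes, labelled KO over labelled WT, ran from -1.38 for Gata3 (SE 1.19) to 0.16 for Klf4 (SE 1.04), with SEs of 0.32 to 1.59.

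Set against primary organoids (the 4 cancer libraries as 1 group against the mean of KO and WT total RNA), 2 of the 10 genes were higher and 5 lower in cancer, beside 38.9% higher and 38.2% lower of 13901 genes tested. The cancer libraries are a separate set, so the set and the tissue cannot be told apart. Pparg was 19.6-fold lower (log2 fold change -4.30, SE 0.76, edgeR adjusted p = 0.000625), with 0.400 to 5.50 CPM in the 4 cancer libraries, against 28.3 to 73.7 CPM in the 6 primary ones. Fabp4 had 3.39 and 3.29 CPM in the libraries labelled KO and 5.67 and 4.99 CPM in those labelled WT, all below the lowest primary value of 27.9 CPM (log2 -3.92, SE 0.20, edgeR adjusted p = 1.25e-07). Elf3 had 32.4 and 10.9 CPM in the libraries labelled KO and 23.6 and 24.6 CPM in those labelled WT, also below every primary library (log2 -3.21, SE 0.28, edgeR adjusted p = 4.69e-06). These 3 genes stood furthest below their level in primary organoids.

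Foxa1 (53.2 and 27.6 CPM in cancer libraries labelled KO, 28.01 and 52.0 CPM in those labelled WT) was lower in cancer by 2.02 on the log2 scale (log2 fold change -2.02, SE 0.22, edgeR adjusted p = 2e-05). Grhl3 (21.9 and 7.45 CPM in those labelled KO, 26.2 and 18.2 CPM in those labelled WT) had a log2 fold change of -1.71 (SE 0.30, edgeR adjusted p = 0.000542). Foxa1, which did not pass between KO and WT in primary organoids, thus differed between cancer and primary organoids. Trp63 was 2.54-fold higher in cancer (log2 1.34, SE 0.16, edgeR adjusted p = 4.58e-05), and its 4 cancer libraries lay above all 6 primary ones. Klf5 was 1.56-fold higher (log2 0.64, SE 0.14, edgeR adjusted p = 0.00208), but its libraries overlapped, and against KO primary organoids alone the difference did not pass (log2 0.39, edgeR adjusted p = 0.0589). In all, 1 gene lay above and 5 lay below the primary range, and 65.6% of all genes tested had no overlap.

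Klf4 (log2 fold change -0.47, SE 0.46, edgeR adjusted p = 0.369) and Tbx3 (0.20, SE 0.21, edgeR adjusted p = 0.385) did not pass. Tbx3 had 164 and 90.3 CPM in cancer libraries labelled KO and 106 and 204 CPM in those labelled WT, on both sides of the primary libraries. Gata3 did not pass with all 4 libraries (-0.95, SE 0.59, edgeR adjusted p = 0.169), but passed without the library labelled KO 2 (-0.58, edgeR adjusted p = 0.00828). Per length, Trp63 led in both labels with 80.0 ± 1.76 CPM per kb in the libraries labelled KO and 76.1 ± 37.1 in those labelled WT, and Pparg was lowest with 0.766 ± 0.826 in those labelled KO and 1.24 ± 1.52 in those labelled WT (SD, n = 2 each).

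The related genes were counted in cancer against primary organoids as well. Of 24 other epithelial transcription factors 3 were higher and 16 lower in cancer (median log2 fold change -1.42), beside the 38.9% higher and 38.2% lower of all genes: Gata6 had 0 counts in 3 of the 4 cancer libraries and 0.112 CPM in the one labelled KO 2, and Gata2 had at most 0.336 CPM in those labelled KO and 0.0167 CPM in those labelled WT, so these relatives of Gata3 were near 0 where Gata3 had at least 4.03 CPM. Of 18 other Pparg target genes 5 were higher and 11 lower (median -1.09), among them Slc27a1, a fatty acid transporter gene (log2 -2.57, SE 0.08, edgeR adjusted p = 7.62e-09), and Cpt1a (log2 -1.88, SE 0.14). Of 17 Pparg partners 6 were higher and 5 lower (median 0.08), no more than the background, with Med1, Crebbp, Ep300 and Ncor1 among those higher. Of 14 relatives and targets of Trp63 8 were higher and 3 lower (median 0.84): Fat2, a cadherin-like gene, was 5.59-fold and Jag2 5.35-fold higher, and Cdkn1a fell by 3.39 on the log2 scale. Of 15 basal markers 10 were higher and 2 lower (median 1.15), with Krt17 at 1871 and 2015 CPM in the libraries labelled KO and 947 and 1578 CPM in those labelled WT, against 4.44 ± 0.446 CPM in KO and 16.6 ± 1.01 CPM in WT primary organoids (SD, n = 3 each). The 2 lower basal markers were Krt15 and Shh. Of 15 luminal markers 2, the receptor genes Erbb2 and Fgfr3, were higher and 11 lower.

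The difference between KO and WT was itself compared between the cancer libraries as labelled and the primary organoids. Fabp4 alone of the 10 genes passed this test, in the lower direction, beside 1.53% higher and 1.60% lower of 14305 genes tested. Fabp4 had a log2 difference of -2.64 (SE 0.19, edgeR adjusted p = 0.00139): all 3 KO libraries were above all 3 WT libraries in primary organoids, and both cancer libraries labelled KO were below both labelled WT. The cancer values of Fabp4 rest on levels under 6 CPM, and the labels of those libraries are in doubt. Its SE of 0.19 uses 1 spread shared by primary and cancer libraries. Between the cancer labels alone the SE of Fabp4 was 0.35, so the adjusted p may overstate the evidence. Grhl3 had a difference of -1.50 (SE 0.53, edgeR adjusted p = 0.166) and passed with DESeq2 (-1.49, adjusted p = 0.0461). The other 8 genes had log2 differences from -1.95 for Pparg (SE 1.32) to -0.04 for Foxa1 (SE 0.42). Without the library labelled KO 1 4 of the 10 genes were lower in this test, and without the one labelled WT 1 3 were. The count of all genes passing was 448 with every library, and ran from 72 without WT 3 of the primary organoids to 2376 without the library labelled KO 1.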

How the data were processed

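RNA-seq of 22 mouse organoid libraries was deposited as raw read counts per gene symbol, whole numbers with no normalization, made by the authors with HTSeq on mm10, per the submitters' processing notes, which also name Bowtie for the 18 primary libraries. The sources used here do not give tool versions, the counting annotation, or strand and multi-mapping settings. Without known strand settings, reads of overlapping antisense genes cannot be told apart.

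The deposited counts went into the quasi-likelihood test of edgeR 4.0.16 under R 4.3.3 (filterByExpr, TMM factors, glmQLFit and glmQLFTest; Benjamini-Hochberg adjustment over all genes tested, threshold 0.05); DESeq2 1.42.0 was an alternative. KO and WT were compared within total RNA, polysomes and subpolysomes on 6 libraries each. Polysome against subpolysome and its interaction with genotype used 12 libraries, the cancer labels 4, and cancer against primary 10. Each SE was taken as the size of the log2 fold change divided by the root of its F statistic. Printed levels are CPM with TMM factors over all 22 libraries; each fit used its own factors. The script was tested on simulated data. Totals of 39245248 to 76594655 counts set the counting error, and floors of 3 counts cover counting error only.

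The 10 genes and the lists were chosen with earlier results of these data known. Named list genes are up to 4 called genes of a list with the smallest p and average log2 CPM of at least 2. Genes most alike are those of highest correlation with average log2 CPM of at least 4, leaving out the 10 genes, predicted models and pseudogenes. Exon lengths are from GENCODE M21 and promoters from RefSeq (GRCm38.p6). Deviations of same-numbered KO and WT polysome libraries correlated weakly, at 0.117, 0.159 and 0.154, and those of unlike number at -0.118 to -0.0228. Deviations within a group offset each other, so the values of like and unlike number are not independent. A pairing is not stated for these libraries, and the main fits used no block. Libraries of a group differed beyond sampling noise (chi-square over degrees of freedom 11.9 to 247), so none was counted as a copy. Leaving out libraries, other scalings, no filter on low counts, a joint fit and replicate blocks were tried; library totals only and the crossed block were chosen after seeing the data.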

Additional observations from a re-analysis of the deposited data

Results flagged for a closer look

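The difference of Fabp4 between KO and WT was not the same in the cancer libraries as labelled and in the primary organoids, by a test of that difference itself (log2 difference -2.64, SE 0.19, edgeR adjusted p = 0.00139, 3 and 3 primary and 2 and 2 cancer libraries). In primary organoids Fabp4 was higher in KO (126 ± 9.59 CPM) than in WT (33.2 ± 4.71 CPM; SD, n = 3 each). Both cancer libraries labelled KO (3.39 and 3.29 CPM) were lower than both labelled WT (5.67 and 4.99 CPM), a difference that did not pass by itself (log2 -0.67, SE 0.35, edgeR adjusted p = 1.00). The 10 fits that left out a library gave log2 differences of -2.73 to -2.53. The SE of 0.19 uses 1 spread shared by primary and cancer libraries. It is smaller than the SE of 0.35 between the cancer labels alone. The adjusted p of 0.00139 rests on that shared spread, as do the fits that left out a library, and may overstate the evidence. The Arid1a levels of the cancer libraries labelled KO 1 and WT 1 went against their labels, so the direction in cancer rests on labels in doubt.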

How the results depend on the processing

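With library totals only, polysome over subpolysome turned positive in KO for Pparg (0.55), Foxa1 (0.78), Elf3 (0.69), Grhl3 (0.13), Klf4 (0.60), Klf5 (0.57), Trp63 (0.46) and Tbx3 (0.0172), giving 7 of the 10 genes higher and 1 lower, and in WT for Pparg (0.30), Elf3 (0.68), Grhl3 (0.16), Klf4 (0.31), Klf5 (0.32), Trp63 (0.54) and Tbx3 (0.0818), giving 4 higher and 1 lower; of all called genes 85.9% in KO and 83.1% in WT were then higher, against 51.4% and 51.6% after TMM scaling. In the same setting Elf3 had 0.0104 in the KO effect on that ratio and Foxa1 -0.016 between the cancer labels. One fit over all 18 primary libraries called 3784 genes in total RNA, against 7025, and gave Tbx3 -0.0224 in polysomes. The KO effect on the ratio called 1 gene, 12 with DESeq2, 29 with no filter, and 0 to 4 without a library. The cancer labels gave 0 genes, and 10 with DESeq2. Against KO primary organoids alone 1 of the 10 genes was higher in cancer. The difference of KO effects between cancer and primary called 448 genes, 1747 with DESeq2 (2 of the 10 lower) and 72 to 2376 without a library (1 to 4 of the 10 lower).

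The replicate block called 5030 genes in polysomes, where same-numbered libraries correlated weakly, against 3757 without it. It changed no call of the 10 genes there or in total RNA and subpolysomes. In total RNA and subpolysomes KO and WT libraries share only a number. Polysome and subpolysome libraries share a genotype and replicate title: for the KO effect on the ratio the block by number called 13 genes, and the block by genotype and number called 12. With either block Klf4 passed in polysome over subpolysome in KO (-0.30, edgeR adjusted p = 0.0298 and 0.0235), and with DESeq2 Elf3 passed there (-0.22, adjusted p = 0.049). Between the cancer labels same-numbered libraries correlated at -0.378 and those of unlike number at 0.378. With 2 libraries per label these sizes are equal by construction. The crossed replicate block joined KO 1 with WT 2 and KO 2 with WT 1. It and the replicate block both called 0 genes by edgeR, and Klf5 had 0.0625 with the replicate block and 0.0624 with the crossed one. Without a block 96 genes had an unadjusted p under 0.05 by edgeR, and DESeq2 called 10.

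Leaving out 1 library at a time turned the sign of values that had not passed. Between KO and WT these were Tbx3 in total RNA (-0.00436 to 0.0753) and in polysomes (-0.0808 to 0.10) and Foxa1 in polysomes (-0.21 to 0.0442). In the KO effect on the ratio they were Gata3 (-0.00104 to 0.25), Grhl3 (-0.26 to 0.0543) and Klf4 (-0.0629 to 0.38). Between the cancer labels they were Pparg (-2.77 to 2.19), Foxa1 (-0.54 to 0.54), Elf3 (-1.15 to 0.43), Klf4 (-0.65 to 2.23), Klf5 (-0.37 to 0.49), Trp63 (-0.35 to 0.69) and Tbx3 (-0.78 to 0.28). In cancer against primary organoids it was Tbx3 (-0.0258 to 0.35). In the difference of KO effects they were Pparg (-4.01 to 0.92), Foxa1 (-0.60 to 0.47), Elf3 (-1.51 to 0.0912), Klf4 (-1.58 to 1.30), Trp63 (-0.90 to 0.14) and Tbx3 (-0.84 to 0.21). Where a single left-out library leaves a cancer label with 1 library, that library is assumed to vary like the others. The cause of these changes was not tested.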
